A study of Mus musculus with 3 samples.

Results

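Interferon-stimulated genes (ISGs) are switched on in many cell types by interferons and by sensors of foreign or misplaced nucleic acid. A list of 39 such genes was followed across all classes of nuclei in mouse hearts, and 37 of them were among the 32285 genes of the deposited count matrices. The genes were chosen by name, but with earlier results of these data known. Mx1 and Mx2 were not analysed here. There were 3 libraries of nuclei from heart tissue, 1 per group, taken 2 weeks after infarction surgery. The groups were myocardial infarction with dapagliflozin (MI-DAPA), myocardial infarction with NS (MI-NS) and sham operation with NS (Sham-NS). The labels do not expand NS, and give neither strain, age, sex, dose nor the number of animals behind a library. Dapagliflozin blocks SGLT2, the glucose cotransporter of the kidney tubule, and is used in diabetes and heart failure. With 1 library per group no difference between groups could be tested, and every interval below covers counting error only.

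Type I interferons bind a shared receptor made of Ifnar1 and Ifnar2, whose kinases Jak1 and Tyk2 phosphorylate Stat2. Together with Irf9 it is part of the factor ISGF3, which binds a short element, the interferon-stimulated response element (ISRE), in the promoters of its targets. The products detect foreign RNA or DNA (Ifih1, Dhx58, Zbp1, Eif2ak2, the PYHIN proteins), stop translation or degrade RNA (the IFIT and OAS families), attack pathogen vacuoles (Iigp1, the guanylate-binding proteins) or feed back on the pathway (Irf7, Usp18). Resting tissue holds a low tonic level of them, and in mice cardiac macrophages are known to make a type I interferon response after infarction.

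The ISRE was looked for in the promoters of the members, from 250 bases before to 50 after the transcription start (RefSeq, build GRCm38.p6), as GAAA, any 2 bases and GAAA again, on either strand. Promoters were held for 27 of the 37 members, and 16 of them (59.3%) contained it, against 3.99% of 27025 genes. Parp14, Oas2 and Iigp1, which have many UMIs, were not among the 27, so nothing is said of their promoters. Among the 16, the 5 promoters below are those of the members with the most UMIs. Each is read 5′ to 3′ along its gene, with the ISRE match in capitals. Another promoter of Ifi203 held no match and is not shown. They are shown because the ISRE is the element through which ISGF3 acts, and the levels of these genes are compared below. Their positions are chr1:173942443-173942742 on the minus strand, chr10:128270248-128270547 on the plus strand, chr3:142530086-142530385 on the plus strand, chr7:104465144-104465443 on the minus strand and chr1:173741760-173742059 on the minus strand.
Ifi203: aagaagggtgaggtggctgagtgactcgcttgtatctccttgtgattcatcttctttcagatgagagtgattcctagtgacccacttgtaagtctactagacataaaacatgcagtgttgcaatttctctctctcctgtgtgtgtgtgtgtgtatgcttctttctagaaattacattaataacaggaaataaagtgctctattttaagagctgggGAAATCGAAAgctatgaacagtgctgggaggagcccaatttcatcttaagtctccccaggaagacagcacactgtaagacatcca
Stat2: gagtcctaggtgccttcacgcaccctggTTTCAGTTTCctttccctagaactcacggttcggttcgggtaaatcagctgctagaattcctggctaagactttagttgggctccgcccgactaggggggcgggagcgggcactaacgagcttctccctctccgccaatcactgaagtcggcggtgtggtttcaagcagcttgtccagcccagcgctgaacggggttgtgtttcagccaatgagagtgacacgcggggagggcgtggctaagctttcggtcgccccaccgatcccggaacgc
Gbp7: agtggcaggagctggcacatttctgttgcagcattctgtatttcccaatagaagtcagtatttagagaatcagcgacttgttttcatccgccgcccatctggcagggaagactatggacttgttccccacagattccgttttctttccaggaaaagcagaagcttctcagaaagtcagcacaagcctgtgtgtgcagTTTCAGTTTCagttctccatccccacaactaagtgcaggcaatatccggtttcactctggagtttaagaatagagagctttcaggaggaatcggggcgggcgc
Trim30a: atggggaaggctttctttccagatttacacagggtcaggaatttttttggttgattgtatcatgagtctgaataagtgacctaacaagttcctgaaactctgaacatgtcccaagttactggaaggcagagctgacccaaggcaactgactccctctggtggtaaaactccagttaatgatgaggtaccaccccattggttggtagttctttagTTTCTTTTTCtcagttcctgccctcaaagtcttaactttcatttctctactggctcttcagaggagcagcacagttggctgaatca
Ifi207: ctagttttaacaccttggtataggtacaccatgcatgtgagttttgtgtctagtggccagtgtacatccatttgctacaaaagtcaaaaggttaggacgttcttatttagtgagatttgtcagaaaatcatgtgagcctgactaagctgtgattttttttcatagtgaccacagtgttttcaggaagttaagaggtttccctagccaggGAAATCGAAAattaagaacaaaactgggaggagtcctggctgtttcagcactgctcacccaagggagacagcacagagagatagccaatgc
The same 10 letters, GAAATCGAAA, stand 35 bases before the start of Ifi203 and 41 bases before that of Ifi207, both of the PYHIN family on chromosome 1. Stat2 and Gbp7 share TTTCAGTTTC, 222 and 53 bases before their starts, and Trim30a has TTTCTTTTTC at 36 bases. A match describes these letters and is not a shown binding site.

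After filtering, 5372 MI-DAPA, 7065 MI-NS and 8296 Sham-NS nuclei remained, with median depths of 831, 851 and 790 UMIs (unique molecular identifiers, each 1 counted RNA molecule). The median mitochondrial share was 2.42% in MI-DAPA, 1.48% in MI-NS and 3.32% in Sham-NS, and Malat1, a nuclear transcript, held 5.97%, 9.31% and 5.47% of UMIs. MI-NS was thus lowest in the one and highest in the other, and the part of this in the member levels was not tested. Between 13 and 20 barcodes were shared by any 2 libraries. Clusters were named from marker genes, the members being left out of the clustering, and are written as "-like", or for short as macrophages, vessels, fibroblasts and cardiomyocytes. Of the nuclei kept, 10.9%, 12.1% and 16.0% fell in clusters with high doublet scores and were left out of the classes. Marker RNA of other cell types was present in every class examined. In macrophage-like nuclei the 12 cardiomyocyte markers summed to 6983, 4984 and 7852 CPM (UMIs scaled to 1e6 UMIs of the class) in MI-DAPA, MI-NS and Sham-NS, and the 14 fibroblast markers to 706, 1550 and 739 CPM. Their own 12 macrophage markers summed to 8597, 8080 and 10285 CPM.

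Macrophage-like and vascular endothelial-like nuclei carried the most ISG RNA and cardiomyocyte-like nuclei the least. Summed over the 37 members, macrophage-like nuclei had 4500 CPM in MI-DAPA (95% Poisson interval 4232 to 4780), 6485 in MI-NS (6284 to 6691) and 7823 in Sham-NS (7586 to 8066). Vascular endothelial-like nuclei had 5482 CPM (5303 to 5666), 6145 (5956 to 6337) and 6342 (6198 to 6489). Macrophage-like nuclei stood above vascular endothelial-like nuclei in Sham-NS and below them in MI-DAPA, and in MI-NS the intervals of the classes overlapped. Fibroblast-like nuclei held 2451 CPM in MI-DAPA, 3031 in MI-NS and 3117 in Sham-NS. T cell-like, lymphatic and endocardial endothelial-like, pericyte-like, smooth muscle-like and B cell-like nuclei lay between 1625 and 4202 CPM in every library. Cardiomyocyte-like nuclei had 442 CPM in MI-DAPA (421 to 465), 794 in MI-NS (757 to 833) and 431 in Sham-NS (411 to 452). In cardiomyocyte-like nuclei MI-NS lay above both other libraries, while in macrophage-like nuclei Sham-NS was the highest. With the 5 members of most UMIs left out, macrophage-like nuclei had 2449 CPM in MI-DAPA (2252 to 2658). They then had 3644 CPM in MI-NS (3494 to 3799) and 3859 in Sham-NS (3693 to 4031), and the intervals of MI-NS and Sham-NS overlapped.

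**Figure D1:**
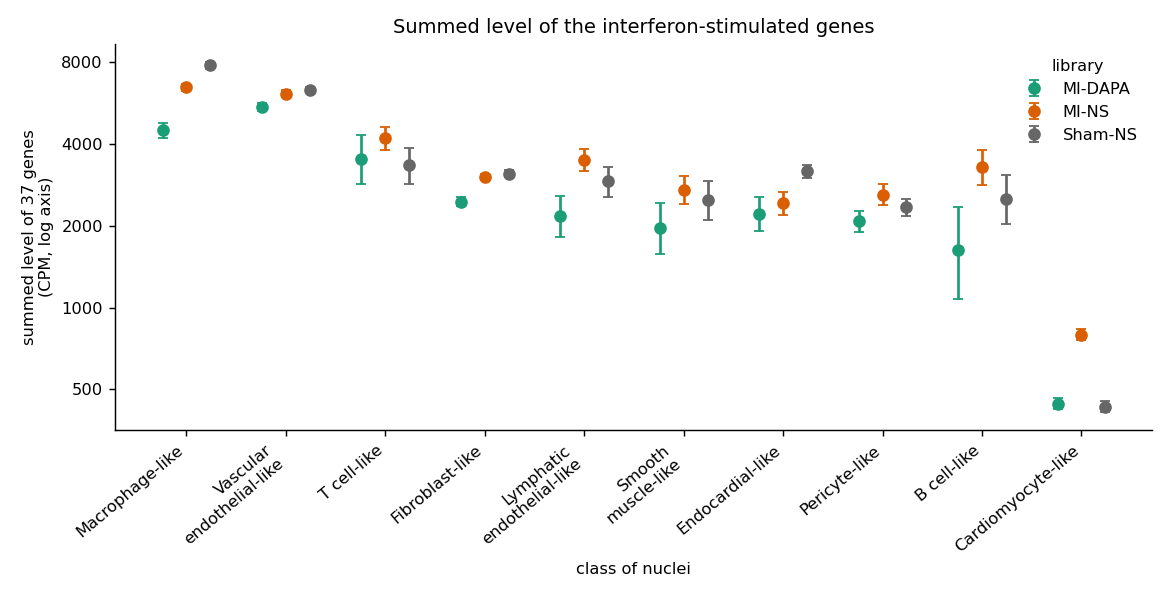
Summed level of the 37 interferon-stimulated genes (CPM, log axis) in 10 classes of nuclei, with 1 point per library (MI-DAPA, MI-NS and Sham-NS from left to right) and 95% Poisson intervals. Macrophage-like and vascular endothelial-like nuclei are at the top, and in cardiomyocyte-like nuclei the MI-NS point (794 CPM) lies above MI-DAPA (442 CPM) and Sham-NS (431 CPM).

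Single members had their own class patterns. Over the 7 classes with at least 50 nuclei in every library, the class with the highest level was vascular endothelial-like in all 3 libraries for 9 members (Ifit1, Rsad2, Stat2, Cmpk2, Xaf1, Herc6, Gbp2, Gbp7 and Iigp1). For 8 it was macrophage-like (Oas1a, Oas2, Zbp1, Ifi27l2a, Dhx58, Rtp4, Ifi204 and Ifi207). For the other 20 the top class differed between libraries. The RNA-degrading arm, the OAS family, summed to 835 CPM in MI-DAPA, 1289 in MI-NS and 1738 in Sham-NS macrophages, against 616, 798 and 700 CPM in vascular endothelial-like nuclei. The GTPases Gbp2, Gbp7 and Iigp1 ran the other way, with 524, 735 and 962 CPM in vascular endothelial-like nuclei and 184, 312 and 353 CPM in macrophages. The IFIT family stood at 213, 197 and 233 CPM in vascular endothelial-like nuclei and 68.5, 149 and 123 CPM in macrophages.

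The 5 members with the most UMIs, not corrected for gene length, were Ifi203, Stat2, Parp14, Oas2 and Iigp1, with 10884, 7216, 5769, 4824 and 3534 UMIs over all nuclei kept. Ifi203, of the DNA-binding PYHIN family, had 1193, 1224 and 1074 CPM in vascular endothelial-like, 651, 811 and 1143 CPM in macrophage-like and 558, 541 and 484 CPM in fibroblast-like nuclei of MI-DAPA, MI-NS and Sham-NS. In cardiomyocyte-like nuclei it had only 12.0, 17.5 and 14.6 CPM. Stat2, the STAT of type I and III interferon signalling, had 278, 395 and 462 CPM in macrophages, 569, 511 and 781 CPM in vessels, 272, 374 and 447 CPM in fibroblasts and 81.3, 96.5 and 56.8 CPM in cardiomyocytes. Oas2, which makes the oligoadenylates that activate RNase L, reached 617, 894 and 1396 CPM in macrophages, 392, 435 and 486 CPM in vessels, and 6.53, 15.1 and 12.8 CPM in cardiomyocytes. Isg15, a ubiquitin-like modifier, had at most 23.1 CPM in the 4 large classes, and Oas3 reached at most 18.2 CPM there.

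**Figure D2:**
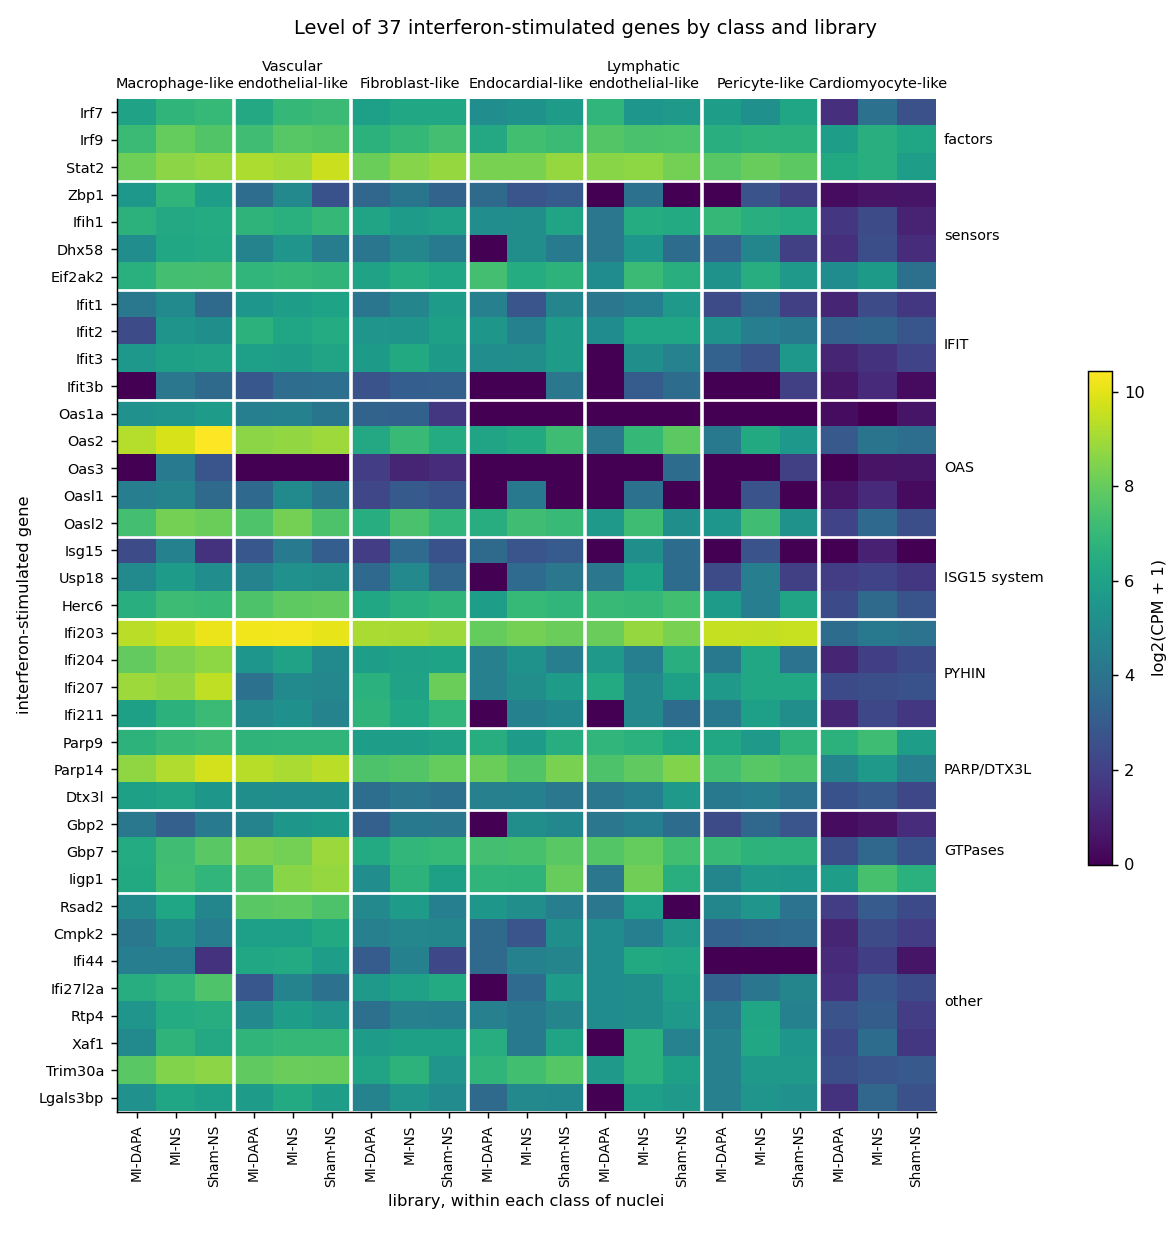
Level of each of the 37 members as log2(CPM + 1), in 7 classes of nuclei with MI-DAPA, MI-NS and Sham-NS from left to right in each, rows grouped by role. Ifi203, Oas2 and Parp14 are bright in the macrophage-like and vascular endothelial-like columns, and the rows that stand out for cardiomyocyte-like nuclei are Irf9, Stat2, Eif2ak2, Parp9, Parp14 and Iigp1.

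Some members could not be counted apart from other genes. Ifi203 and Ifi211 overlap Mndal, Irf9 overlaps Rnf31 and Rtp4 overlaps Gm45338 on the same strand (GENCODE vM21), and 7 members overlap a counted gene on the other strand, among them Parp9 and Dtx3l each other. The longest transcripts of Ifit3 and Ifit3b are 98.0% identical, those of Oas1a and Oas1g 97.8% and those of Ifi204 and Ifi211 95.7%. Levels of these members are therefore uncertain.

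In macrophage-like nuclei most members were lower in MI-DAPA than in MI-NS. Of the 24 members with at least 50 UMIs over both libraries, the threshold for a ratio, 22 were lower and 2 higher (Ifih1 and Ifi207), with a median log2 ratio of -0.68, against 0.02 over all 3732 genes measurable in that class. A gene with few UMIs could reach this threshold only through the library where it was high. That holds for members and for all genes, in every class and contrast below. At least 2-fold lower were 3 of the 24, Xaf1, Zbp1 and Dhx58, and 0 were 2-fold higher, while over all genes 4.18% were lower and 1.53% higher by that much. Xaf1, a pro-apoptotic partner of the inhibitor XIAP, had 30.0 CPM in MI-DAPA, 109 in MI-NS and 77.9 in Sham-NS, a log2 ratio of MI-DAPA over MI-NS of -1.78 (95% interval -3.23 to -0.74). Zbp1, a sensor of left-handed nucleic acid that can start necroptosis, had 47.1, 112 and 55.1 CPM, a log2 ratio of -1.20 (-2.32 to -0.33). Dhx58, which tunes the RNA sensor Ifih1, had 34.3, 74.4 and 81.7 CPM, a log2 ratio of -1.05 (-2.42 to -0.02). For Xaf1 and Zbp1 the MI-NS level was the highest of the 3 libraries, whereas Dhx58 was alike in MI-NS and Sham-NS. The 2-fold difference of Dhx58 was not kept when each nucleus was assigned by its own marker level (log2 ratio -0.69), nor was that of Zbp1 (-0.82). These counts are small, 7 MI-DAPA against 66 MI-NS UMIs for Xaf1, and Dhx58 stood little above the 50-UMI threshold, mostly through MI-NS. Within finer macrophage clusters, looked at after the data had been seen, the members' median was -0.49 in that led by Clec10a and Cd163 (13 of 14 members lower) and -0.48 in that led by Cd72 and Ms4a7 (11 of 12 lower), beside 0.07 over all genes in each.

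The macrophage contrast of MI-NS with Sham-NS had a list median of -0.13 over 28 measurable members, 18 lower and 10 higher, against 0.05 over all genes. Members with many UMIs stood lower in MI-NS, among them Oas2 (log2 ratio -0.64, -0.81 to -0.48), Ifi203 (-0.49, -0.67 to -0.32), Parp14 (-0.53, -0.74 to -0.33) and Ifi207 (-0.67, -0.91 to -0.44). In the other direction, Rsad2 and Zbp1 were at least 2-fold higher in MI-NS, 2 of 28 with 0 lower, beside 5.3% higher and 2.26% lower over all genes. Rsad2, or viperin, which makes an antiviral nucleotide, had 30.0 CPM in MI-DAPA, 69.4 in MI-NS and 26.6 in Sham-NS, a log2 ratio of MI-NS over Sham-NS of 1.35 (0.48 to 2.37). Zbp1 had a log2 ratio of 1.01 (0.38 to 1.71), which TMM scaling (weighted trimmed mean of log ratios) brought to 0.89, and Rsad2 came to 0.74 with nuclei assigned by marker level. The class was made of different finer clusters in these libraries. The Clec10a and Cd163 cluster held 178 MI-DAPA, 363 MI-NS and 552 Sham-NS nuclei, and the Cd72 and Ms4a7 cluster, with Ccr2 among its leading genes, held 186, 470 and 203. The summed member level was 5211, 7236 and 8063 CPM in the Clec10a and Cd163 cluster and 3869, 5822 and 7139 CPM in the Cd72 and Ms4a7 cluster, so that the order of the libraries was that of the whole class in both. Rsad2 had 35.4, 111 and 20.6 CPM in the Clec10a and Cd163 cluster, but 25.5, 36.3 and 44.2 CPM in the Cd72 and Ms4a7 cluster, there from 3, 12 and 6 UMIs. Zbp1 had 62.0, 140 and 59.2 CPM in the one and 34.0, 87.7 and 44.2 CPM in the other, MI-NS being the highest in each. For Ifi207 in the Clec10a and Cd163 cluster the MI-DAPA and MI-NS levels were alike, at 470 and 468 CPM, and Sham-NS had 726 CPM.

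Among vascular endothelial-like nuclei, the median over 24 measurable members was -0.15 for MI-DAPA over MI-NS, with 17 lower and 7 higher, beside -0.02 over all 5105 genes. With TMM scaling the members' median was -0.025. A single member passed 2-fold, Iigp1, and it was lower, 1 of 24 beside 3.11% of all genes lower and 0.764% higher. Iigp1, a GTPase that coats and breaks the vacuoles of intracellular pathogens, had 166 CPM in MI-DAPA, 381 in MI-NS and 443 in Sham-NS, a log2 ratio of -1.20 (-1.54 to -0.87). The UMIs behind it were 107, 250 and 512, and the ratio stayed between -1.43 and -1.08 under the alternatives run on the whole class. Oasl2, of the OAS family, had 191, 310 and 183 CPM, so that only MI-NS was high (log2 ratio -0.70, -1.03 to -0.37).

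For MI-NS over Sham-NS the vascular endothelial-like median was 0.01 over 30 members (0.09 over all genes), and -0.18 with TMM scaling. Dhx58 and Ifi204 were 2-fold higher in MI-NS, 2 of 30 beside 6.13% of all genes, and 0 members were 2-fold lower, beside 2.65%. Dhx58 had 24.8 CPM in MI-DAPA, 42.7 in MI-NS and 19.9 in Sham-NS (log2 ratio 1.10, 0.25 to 1.96). Ifi204, a PYHIN DNA sensor, had 43.4, 64.1 and 31.2 CPM (log2 ratio 1.04, 0.36 to 1.72). Both dropped under 2-fold with TMM scaling, at 0.90 and 0.84. Ifi204 was far more abundant in macrophages, at 244, 342 and 412 CPM. The 12 macrophage markers summed to 262, 284 and 302 CPM within the vascular endothelial-like nuclei of MI-DAPA, MI-NS and Sham-NS. The part of macrophage RNA in the Ifi204 level was not tested. Stat2 (-0.61, -0.80 to -0.43) and Gbp7 (-0.60, -0.85 to -0.37) were lower in MI-NS than in Sham-NS over the class.

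The finer clusters of the vascular class also differed in size between libraries. That led by Timp4 and Lhx6 held 245 MI-DAPA, 198 MI-NS and 1194 Sham-NS nuclei, and that led by Ift122 and Kit held 575, 582 and 208. The summed member level was 5795, 6966 and 6574 CPM in the Timp4 and Lhx6 cluster and 5231, 5842 and 5820 CPM in the Ift122 and Kit cluster. MI-DAPA was the lowest library in both, and MI-NS was not below Sham-NS in either. In the whole class the summed log2 ratio of MI-NS over Sham-NS was -0.05, with an interval including 0 (-0.10 to 0.01). A further cluster, led by Sema3g and Eps8l2, held 134, 140 and 310 nuclei and had 5798, 6219 and 5818 CPM, so that MI-DAPA and Sham-NS were alike in it. The members' median for MI-NS over Sham-NS was 0.12 in the Timp4 and Lhx6 cluster, beside 0.0035 over all genes, and -0.10 in the Ift122 and Kit cluster, beside -0.0075. Stat2 was lower in MI-NS in both, at 648 CPM in MI-NS and 844 in Sham-NS in the Timp4 and Lhx6 cluster, and at 488 and 604 CPM in the Ift122 and Kit cluster. Gbp7 had 307 CPM in MI-NS and 523 in Sham-NS in the Timp4 and Lhx6 cluster, but 341 and 330 CPM in the Ift122 and Kit cluster. Iigp1 was lower in MI-DAPA in both, at 223 CPM in MI-DAPA and 580 in MI-NS in the Timp4 and Lhx6 cluster, and at 144 and 310 CPM in the Ift122 and Kit cluster.

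**Figure D3:**
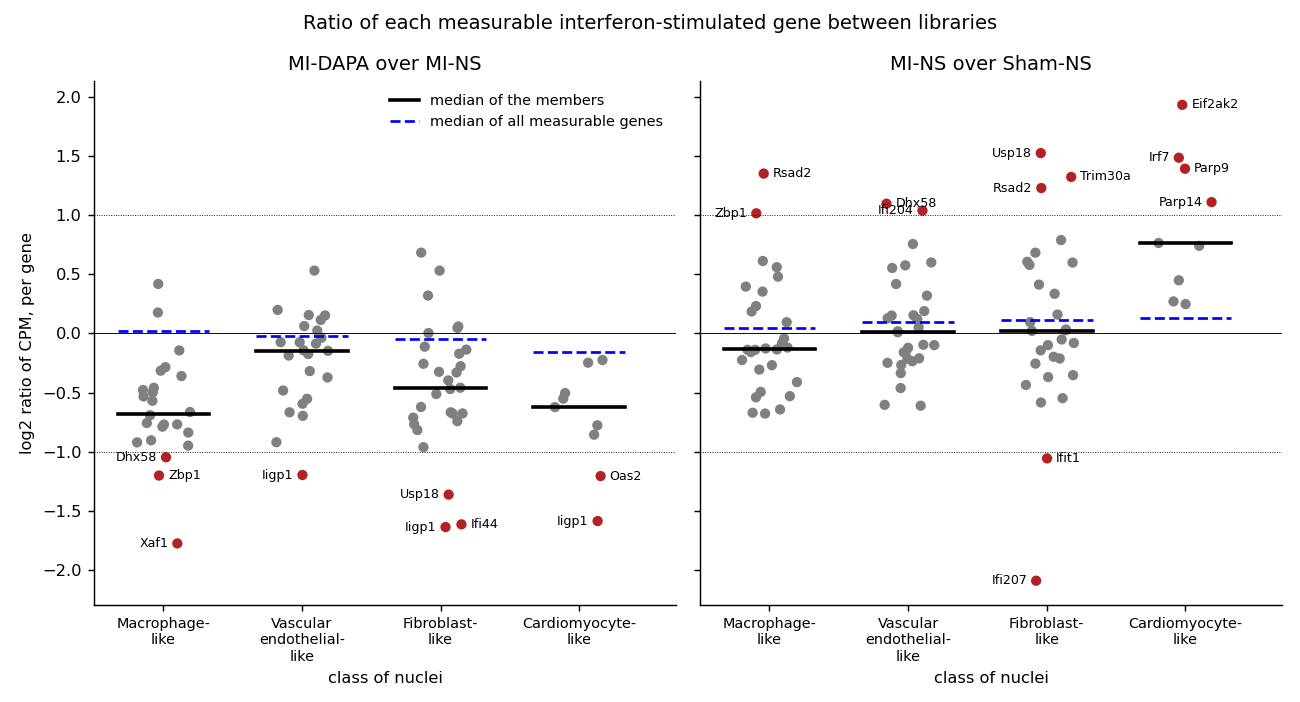
Log2 ratio of each measurable member for MI-DAPA over MI-NS (left) and MI-NS over Sham-NS (right) in 4 classes, with 1 point per gene, red and named where the difference is at least 2-fold. The solid line is the members' median and the dashed line that of all measurable genes; the medians are -0.68, -0.15, -0.46 and -0.62 on the left and -0.13, 0.01, 0.02 and 0.76 on the right.

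In fibroblast-like nuclei 23 of 29 measurable members were lower in MI-DAPA than in MI-NS, with a median log2 ratio of -0.46 beside -0.04 over all 8205 genes. At least 2-fold lower were Iigp1, Ifi44 and Usp18, 3 of 29 beside 3.35% of all genes, and 0 were 2-fold higher, beside 1.08%. Iigp1 had 33.7 CPM in MI-DAPA, 106 in MI-NS and 61.0 in Sham-NS (log2 ratio -1.64, -2.20 to -1.14). Ifi44, a cytoplasmic interferon-induced protein, had 7.28, 23.4 and 3.77 CPM (-1.61, -2.99 to -0.58). Usp18, the protease that removes Isg15 and dampens the interferon receptor, had 10.9, 29.0 and 9.80 CPM (-1.36, -2.45 to -0.48). In all of these MI-NS was the highest library, and the 3 differences stayed over 2-fold under the alternatives run on the whole class. Within single clusters they were not all that large. Iigp1 had 46.9 CPM in MI-DAPA and 91.7 in MI-NS in the cluster led by Ltbp2 and Comp, and Ifi44 had 10.4 and 17.3 CPM in that led by Slc34a1 and Vcan. Over the class, the PYHIN members Ifi207 and Ifi211 were higher in MI-DAPA than in MI-NS, at 102, 63.5 and 271 CPM for Ifi207 (log2 ratio 0.68, 0.29 to 1.07) and 111, 76.9 and 115 CPM for Ifi211 (0.53, 0.17 to 0.89). This direction was not that of every cluster, since Ifi211 had 44.6 CPM in MI-DAPA and 68.3 in MI-NS in the Ltbp2 and Comp cluster, and 138 and 91.6 CPM in the Slc34a1 and Vcan cluster.

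The fibroblast median for MI-NS over Sham-NS was 0.02 over 29 members, 15 higher and 14 lower (0.11 over all genes), and -0.11 with TMM scaling. Usp18, Trim30a and Rsad2 were at least 2-fold higher in MI-NS, 3 of 29 beside 8.97% of all genes, and Ifit1 and Ifi207 at least 2-fold lower, 2 of 29 beside 4.07%. Usp18 had a log2 ratio of 1.52 (0.67 to 2.57). Trim30a, a ubiquitin ligase that restrains Toll-like receptor signalling, had 67.4 CPM in MI-DAPA, 108 in MI-NS and 43.0 in Sham-NS (1.32, 0.90 to 1.78). Rsad2 had 29.1, 51.8 and 21.9 CPM (1.23, 0.63 to 1.90). In these 3 genes MI-NS was the highest library. Ifi207 had the largest whole-class difference among the 29, at 63.5 CPM in MI-NS and 271 in Sham-NS (-2.09, -2.41 to -1.79), and Ifit1, which binds viral RNA without a fully methylated cap, had 25.6 and 53.5 CPM (-1.06, -1.63 to -0.51). Trim30a came to 0.70 and Ifit1 to -0.73 when nuclei were assigned by marker level.

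Different fibroblast clusters made up the class in each library. The cluster led by Ltbp2 and Comp held 487 MI-DAPA, 1345 MI-NS and 10 Sham-NS nuclei, that led by Lvrn and Gsta3, with Dpep1 and the PYHIN gene Ifi205 among its leading genes, held 134, 25 and 1481, and that led by Slc34a1 and Vcan, with Pi16, held 726, 680 and 268. The summed member level was 2110 CPM in MI-DAPA and 2815 in MI-NS in the Ltbp2 and Comp cluster, and 2849, 4798 and 3275 CPM in the Lvrn and Gsta3 cluster, the MI-NS value resting on 78 UMIs. Ifi207 differed between the clusters, with 21.1 and 35.0 CPM in the Ltbp2 and Comp cluster in MI-DAPA and MI-NS. It had 144, 114 and 96.9 CPM in the Slc34a1 and Vcan cluster. In the Lvrn and Gsta3 cluster it had 212, 369 and 308 CPM, from 20, 6 and 339 UMIs. MI-NS was thus not below Sham-NS for Ifi207 in the Slc34a1 and Vcan or the Lvrn and Gsta3 cluster, unlike in the whole class. Within the Slc34a1 and Vcan cluster, the only one with over 100 nuclei in every library, the members stood at 2638 CPM in MI-DAPA (2507 to 2774), 3430 in MI-NS (3280 to 3584) and 2386 in Sham-NS (2185 to 2601). There the median log2 ratio was -0.42 for MI-DAPA over MI-NS, with 16 of 22 members lower, and 0.62 for MI-NS over Sham-NS, with 14 of 18 higher, beside 0.00 and 0.03 over all genes. For MI-NS over Sham-NS the median was thus 0.62 in this cluster and 0.02 in the whole class. The look at 1 cluster alone was chosen after the data had been seen. Within the cluster Iigp1 had 19.0 CPM in MI-DAPA, 126 in MI-NS and 55.4 in Sham-NS, and Rsad2 had 36.3, 96.8 and 23.1 CPM. Usp18 had 10.4, 34.6 and 23.1 CPM there, from 6, 20 and 5 UMIs, so that MI-NS over Sham-NS was under 2-fold in this cluster.

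In cardiomyocyte-like nuclei every measurable member was highest in MI-NS. Only 9 members were measurable for each contrast, and which ones were depended in part on their level in MI-NS, the library in both contrasts. For MI-NS over Sham-NS all 9 were higher in MI-NS, with a median log2 ratio of 0.76 beside 0.13 over all 8224 genes, and 0.53 with TMM scaling. For MI-DAPA over MI-NS all 9 were lower, with a median of -0.62 beside -0.16 over all 8066 genes, and -0.39 with TMM scaling. Some of these differences were within counting error. The interval included 0 for Oas2 in MI-NS over Sham-NS (0.25, -0.45 to 0.90). It did so too for Stat2 (-0.25, -0.51 to 0.02) and Ifit2 (-0.22, -1.08 to 0.68) in MI-DAPA over MI-NS. Eif2ak2, Irf7, Parp9 and Parp14 exceeded Sham-NS at least 2-fold in MI-NS, 4 of 9 beside 7.23% of all genes higher and 2.2% lower. Eif2ak2, the kinase PKR that halts translation on double-stranded RNA, had 33.2 CPM in MI-DAPA, 51.1 in MI-NS and 13.3 in Sham-NS (log2 ratio 1.93, 1.45 to 2.44). Parp9, a macrodomain protein that works with the ubiquitin ligase Dtx3l, had 105, 148 and 56.6 CPM (1.39, 1.14 to 1.65). For both genes the MI-DAPA level lay between MI-NS and Sham-NS. Parp14, a mono-ADP-ribosyltransferase, had 26.4, 47.8 and 22.1 CPM (1.11, 0.68 to 1.54), and Irf7, the factor that amplifies interferon alpha production, had 1.63, 14.2 and 5.03 CPM from 6, 30 and 20 UMIs (1.48, 0.63 to 2.39). Parp14 came to 0.87 with TMM scaling and to 0.16 with nuclei assigned by marker level, and Irf7 to 0.68 by marker level.

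Iigp1 and Oas2 were at least 2-fold lower in MI-DAPA than in MI-NS cardiomyocytes, 2 of 9 beside 4.57% of all genes, and 0 were 2-fold higher, beside 0.422%. Iigp1 had 56.0 CPM in MI-DAPA (48.7 to 64.2), 168 in MI-NS (151 to 187) and 101 in Sham-NS (91.2 to 111), from 206, 356 and 401 UMIs. The intervals did not overlap, and MI-DAPA lay below Sham-NS too (log2 ratio of MI-DAPA over MI-NS -1.59, -1.84 to -1.34). Oas2 had 6.53, 15.1 and 12.8 CPM (-1.21, -2.04 to -0.40), and came to -0.97 with TMM scaling. Iigp1 was also the member that differed at least 2-fold between MI-DAPA and MI-NS in 3 of the 4 large classes, while in macrophages it was 81.3, 155 and 118 CPM (-0.90, -1.73 to -0.21).

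**Figure D4:**
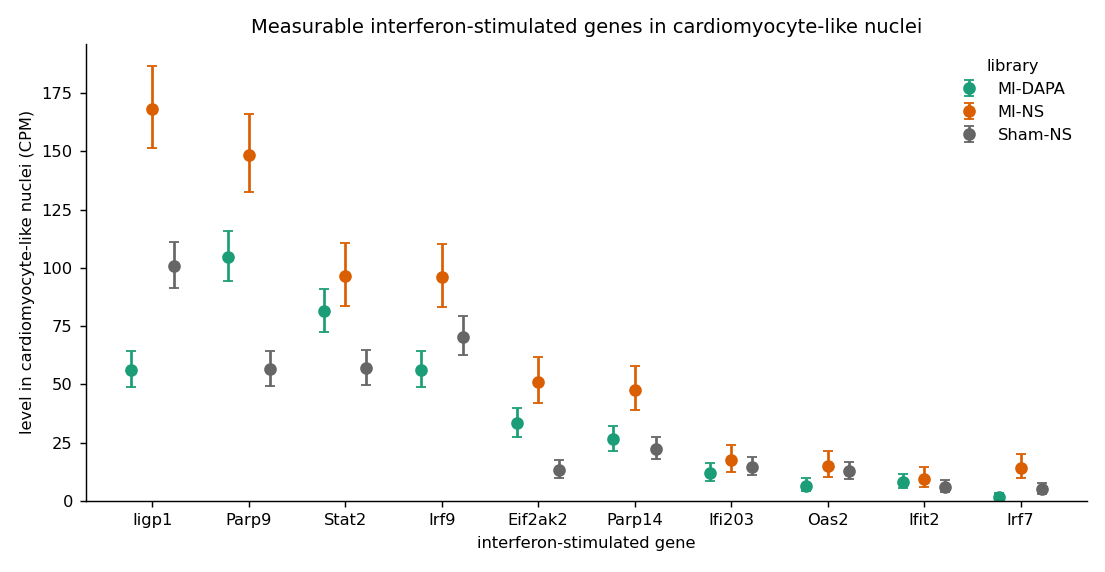
Level (CPM, with 95% Poisson intervals) in cardiomyocyte-like nuclei of the 10 members measurable in either contrast, with MI-DAPA, MI-NS and Sham-NS from left to right for each gene. MI-NS is the highest of the 3 libraries for every gene shown, from Iigp1 (56.0, 168 and 101 CPM) to Irf7 (1.63, 14.2 and 5.03 CPM).

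Markers of other cells also stood highest in MI-NS cardiomyocyte-like nuclei. The macrophage markers summed to 35.9, 70.0 and 58.3 CPM in MI-DAPA, MI-NS and Sham-NS, the fibroblast markers to 320, 572 and 336 CPM and the vascular endothelial markers to 111, 175 and 150 CPM, all markers on the lists being detected in each library. Their part in the member levels was not tested. Some members, though not all, stood in other proportions to Ifi203 in cardiomyocytes. Oas2 was nearer to macrophage-like nuclei. In MI-NS it had 86.5 UMIs per 100 Ifi203 UMIs in cardiomyocyte-like, 110 in macrophage-like and 35.5 in vascular endothelial-like nuclei. In Sham-NS these values were 87.9, 122 and 45.2. Iigp1 had the highest cardiomyocyte-like value in MI-NS and Sham-NS among the members set against Ifi203. In MI-NS there were 962 Iigp1 UMIs per 100 Ifi203 UMIs in cardiomyocyte-like nuclei, against 31.2 in vascular endothelial-like, 19.6 in fibroblast-like and 19.1 in macrophage-like nuclei, and Sham-NS had 691, 41.3, 12.6 and 10.3. The cluster led by Mhrt and Ryr2, which held 1369, 781 and 1591 nuclei, had summed levels of 450, 837 and 431 CPM, and within it 7 of 7 measurable members were lower in MI-DAPA than in MI-NS (median -0.65) and 8 of 8 were higher in MI-NS relative to Sham-NS (median 0.92). The cluster led by Myh7 and Nppa had 316 CPM in 67 MI-DAPA nuclei and 638 CPM in 176 MI-NS nuclei, with 3 nuclei in Sham-NS. MI-DAPA was lower than MI-NS in both clusters. Without Iigp1 the summed log2 ratios were -0.70 (-0.81 to -0.59) for MI-DAPA over MI-NS and 0.92 (0.81 to 1.03) for MI-NS over Sham-NS.

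Across the 4 large classes, 28 members were measurable for MI-DAPA over MI-NS in at least 2 classes. Of these, 17 (60.7%) were lower in MI-DAPA in every class where they could be measured, 2 (7.14%) were higher in every one (Ifih1 and Ifi207) and 9 were mixed. Over all 7371 genes measurable in at least 2 of the classes, 32.8% were lower and 18.6% higher throughout. Irf9, Oas2, Eif2ak2 and Iigp1 were measurable and lower in all 4. Setting MI-NS against Sham-NS, 30 members were measurable in at least 2 classes, and 20 of them were mixed, 5 higher throughout (Oasl2, Rsad2, Usp18, Xaf1 and Lgals3bp) and 5 lower throughout (Ifit1, Ifit2, Ifi27l2a, Ifih1 and Gbp7), or 16.7% each way. Over all 7709 genes 32.6% were higher and 16.8% lower throughout. The classes come from the same 3 libraries and are not replicates of each other. The contrasts share the MI-NS library, so a high or low value there enters both. Ifit3b, Isg15, Oas3 and Oasl1 were measurable for neither contrast in any of these classes, and Oas1a and Gbp2 not for MI-DAPA over MI-NS.

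In smaller classes only summed levels are given. Lymphatic endothelial-like nuclei had 2172 CPM in MI-DAPA, 3499 in MI-NS and 2915 in Sham-NS, a log2 ratio of -0.68 (-0.98 to -0.41) for MI-DAPA over MI-NS and of 0.26 (0.04 to 0.49) for MI-NS over Sham-NS. Endocardial-like nuclei, which line the chambers, had 2219, 2420 and 3182 CPM, with log2 ratios of -0.12 (-0.38 to 0.12) for MI-DAPA over MI-NS and -0.39 (-0.56 to -0.24) for MI-NS over Sham-NS. Cardiomyocyte markers in the endocardial-like nuclei differed widely, at 36334, 9552 and 23598 CPM, and their part in these levels was not tested. Pericyte-like nuclei had 2078, 2609 and 2339 CPM (-0.33, -0.51 to -0.14, for MI-DAPA over MI-NS), and smooth muscle-like nuclei 1964, 2712 and 2491 CPM (-0.46, -0.83 to -0.11). B cell-like nuclei had 1625, 3284 and 2521 CPM from 28, 186 and 92 UMIs (-0.99, -1.64 to -0.44), and T cell-like nuclei 3533, 4202 and 3339 CPM (-0.24, -0.59 to 0.07). In each of the 10 classes MI-DAPA was lower than MI-NS, with the interval including 0 for endocardial-like and T cell-like nuclei. Mesothelial or epicardial-like nuclei came almost all from MI-NS (15, 466 and 14 nuclei) and had 3185 CPM there, and adipocyte-like nuclei (1, 87 and 2) had 2558 CPM.

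After every nucleus had been thinned to 500 UMIs, 47.8% of MI-DAPA (Clopper-Pearson 42.6 to 53.1%), 65.4% of MI-NS (62.0 to 68.6%) and 77.0% of Sham-NS (73.8 to 79.97%) macrophage-like nuclei had at least 2 members detected. Unthinned, these shares were 59.0%, 75.6% and 84.5%, at median depths of 591, 654 and 631 UMIs. In vascular endothelial-like nuclei the thinned shares were 57.3%, 61.4% and 64.7% (unthinned 69.0%, 72.4% and 74.0%), and in fibroblast-like nuclei 25.8%, 30.6% and 35.5% (unthinned 40.3%, 45.5% and 49.9%). Cardiomyocyte-like nuclei, the class of lowest level, gave 2.37% (1.65 to 3.29%), 5.54% (4.18 to 7.18%) and 1.51% (0.967 to 2.23%), and 23.7%, 34.5% and 20.6% unthinned at median depths of 2266.5, 1930 and 2217 UMIs. The cardiomyocyte interval of MI-NS did not overlap those of MI-DAPA and Sham-NS. The cardiomyocyte shares are the lowest of the large classes and none of them is read as expression in single nuclei. Fibroblast and macrophage markers were highest in MI-NS cardiomyocyte-like nuclei too, as given above, and their part in the share was not tested.

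Nuclei with many members at once were counted as well. With a threshold of at least 6 members in a nucleus, chosen after the data had been seen, there were 24 of 368 MI-DAPA, 155 of 837 MI-NS and 164 of 757 Sham-NS macrophage-like nuclei, or 6.52% (4.22 to 9.55%), 18.5% (15.9 to 21.3%) and 21.7% (18.8 to 24.8%). In vascular endothelial-like nuclei the shares were 9.88%, 15.9% and 14.2%, and in fibroblast-like nuclei 3.64%, 6.68% and 3.75%, so that among fibroblasts only MI-NS was high (interval 5.64 to 7.85%, against 2.70 to 4.78% in MI-DAPA and 2.91 to 4.75% in Sham-NS). These shares were not thinned, and the fibroblast-like median depths were 742, 765.5 and 701 UMIs. The highest number of members in 1 nucleus was 26, in an MI-NS macrophage-like nucleus.

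**Figure D5:**
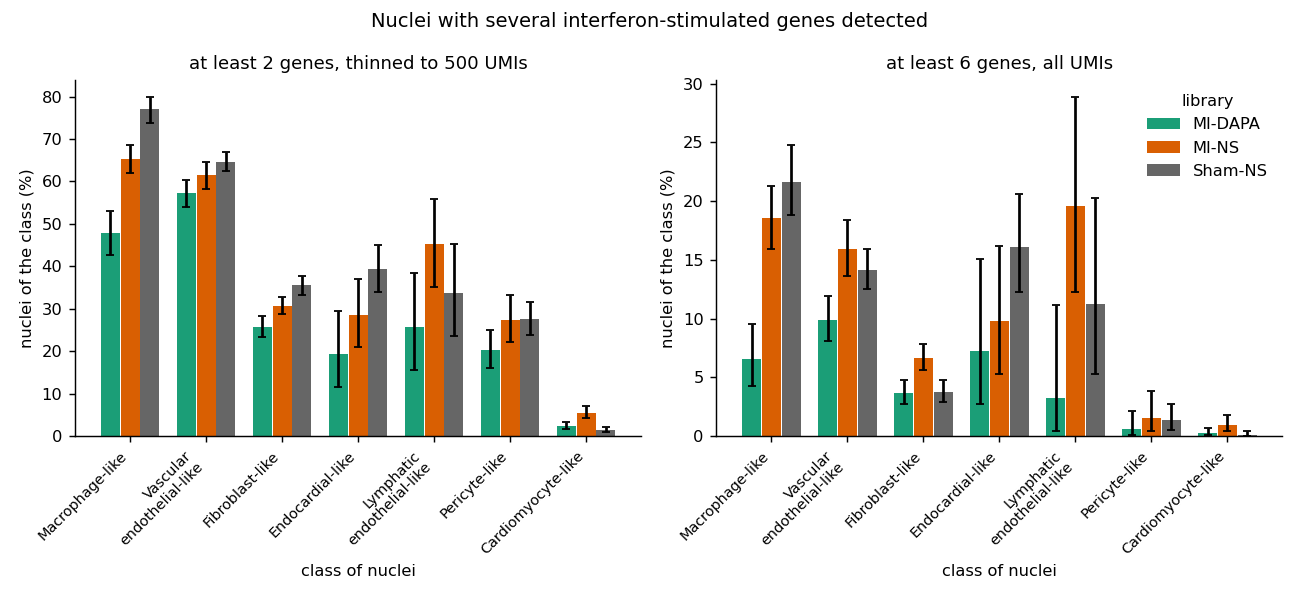
Percent of nuclei with at least 2 members after thinning to 500 UMIs (left) and with at least 6 members at full depth (right) in 7 classes, with bars for MI-DAPA, MI-NS and Sham-NS from left to right and 95% Clopper-Pearson intervals. Macrophage-like bars are 47.8%, 65.4% and 77.0% on the left, and fibroblast-like bars are 3.64%, 6.68% and 3.75% on the right.

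When the members were kept among the genes used for clustering, a cluster of 43 nuclei formed, with 6 from MI-DAPA, 35 from MI-NS and 2 from Sham-NS. Its 10 leading genes included 7 members, Ifit3, Ifit1, Rsad2, Cmpk2, Isg15, Ifi44 and Ifi211, beside Cxcl10, a chemokine induced by interferon, and Gbp5 and Gbp3. Of the 43 nuclei, 37 had been fibroblast-like with the members left out, 2 vascular endothelial-like, 1 pericyte-like and 3 in mixed clusters, and 0 macrophage-like. The members define this cluster, so their levels in it are no result. Its nuclei were 32 of the 2050 fibroblast-like nuclei of MI-NS, 4 of 1347 in MI-DAPA and 1 of 1759 in Sham-NS.

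Ligands, receptors, signalling genes and further targets of the pathway were read from a list of 106, of which 103 were among the counted genes. Interferon genes themselves were almost undetected, with Ifnb1 at 1, 2 and 0 UMIs and Ifng at 0, 1 and 2 UMIs over all MI-DAPA, MI-NS and Sham-NS nuclei, while receptor RNA was present (Ifnar1 448, 820 and 691 UMIs). In macrophage-like nuclei 53 genes of the list were measurable for MI-DAPA over MI-NS, of which 2 were at least 2-fold higher and 8 lower, with a median of -0.31. Psmb9, an interferon-inducible proteasome subunit, had 21.4 CPM in MI-DAPA and 92.5 in MI-NS (log2 ratio -1.99, -3.79 to -0.80). Ikbke, a kinase that activates Irf3 and Irf7, had 59.9 CPM in MI-DAPA and 185 in MI-NS (-1.58, -2.54 to -0.82), and Slfn1 30.0 and 81.0 CPM (-1.35, -2.82 to -0.28). Tlr7, the endosomal sensor of single-stranded RNA, was higher, at 188 CPM in MI-DAPA and 77.7 in MI-NS (1.28, 0.65 to 1.90). For MI-NS over Sham-NS, 3 of 64 were higher and 2 lower, led by Ikbke at 185 CPM in MI-NS and 26.6 in Sham-NS (2.75, 1.99 to 3.72), Helz2 (1.47), Oas1g (-1.32) and Gbp9 (-1.26).

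In vascular endothelial-like nuclei 0 of 56 listed genes were 2-fold higher and 3 lower in MI-DAPA than in MI-NS, Ifitm3 (37.2 CPM in MI-DAPA and 119 in MI-NS, -1.66), Bst2 (27.9 and 83.9 CPM, -1.56) and Slfn2 (-1.11). Ifitm3 blocks viral entry and Bst2 tethers budding virus. Both stood above Sham-NS in MI-NS, with log2 ratios of 1.19 and 1.27, among 6 of 65 higher and 1 lower, as were Ifi213 (1.35) and Shisa5 (1.21). In fibroblast-like nuclei 0 of 58 were higher and 4 lower in MI-DAPA, Trim30d (-1.14), Mavs (-1.04), Tap1 (-1.04) and Bst2 (-1.02), and 4 of 63 were higher and 1 lower in MI-NS over Sham-NS, led by Tmem173, the adaptor STING (31.8 CPM in MI-NS and 10.6 in Sham-NS, 1.55), and by Pml, Ifi213 and Trim30d (1.17, 1.12 and 1.03). Cardiomyocyte-like nuclei had 0 of 41 higher and 3 lower in MI-DAPA, the peptide transporter Tap1 (8.43 CPM in MI-DAPA and 21.8 in MI-NS, -1.36), Mndal (-1.12) and Pml (-1.06). In that class 6 of 43 were higher and 2 lower in MI-NS over Sham-NS, led by Uba7, the activating enzyme for Isg15 (67.6 CPM in MI-NS and 20.4 in Sham-NS, 1.73), Tap1 (1.52) and Trim12c (1.52), while Ptpn11, a phosphatase, was lower (49.2 CPM in MI-NS and 171 in Sham-NS, -1.79). The shares of all genes 2-fold different in each of these contrasts are those given above for the members.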

How the data were processed

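Single nuclei of 3 mouse heart libraries, 1 per group, were counted with the 10x 3' v3.1 chemistry, per the labels' protocols. The deposited values are raw UMI counts per gene and barcode, made with Cell Ranger 6.0.1 per the file headers. Build mm10 and Seurat are named in the submitters' processing notes, and the use of intronic reads is not given in the sources used here. The labels do not say how many animals a library holds.

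Barcodes with at least 300 genes and at most 10% mitochondrial UMIs were kept, 20733 in all. Scrublet called 2, 1 and 0 doublets in MI-DAPA, MI-NS and Sham-NS, and so had not worked. A cluster whose median score exceeded 0.1 was treated as mixed and kept out of the classes. Clustering (scanpy 1.11.5, leidenalg 0.10.2, Python 3.11.15) used 2000 variable genes per library without the members, 30 principal components, 15 neighbours and resolution 1.0, with no batch correction. Of 21 marker sets, a class needed 3 markers at least 2-fold up in the cluster.

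UMIs were summed per class and library and given as CPM with exact Poisson 95% intervals. Log2 ratios had 0.5 UMI added to each sum and exact conditional binomial intervals (scipy 1.17.1), for genes with at least 50 UMIs over both libraries. A difference of at least 2-fold was counted. The ratios were tested on simulated data. Named member by member are those measurable and 2-fold different in a class, and the 5 with the most UMIs; a few others are named beside them, chosen after their values were seen. Pathway genes are named up to 4 per class and contrast. Promoters come from RefSeq (GRCm38.p6) and positions from GENCODE vM21. TMM factors came from edgeR 4.0.16 (R 4.3.3). Members and lists were chosen with earlier results of these data known.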

Additional observations from a re-analysis of the deposited data

Results flagged for a closer look

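The members moved in opposite directions in different classes for MI-NS over Sham-NS, with intervals on either side of 0. With 1 library per group the difference between classes was not tested. The summed log2 ratio was 0.88 in cardiomyocyte-like, 0.38 in B cell-like, 0.33 in T cell-like and 0.26 in lymphatic endothelial-like nuclei, and -0.27 in macrophage-like and -0.39 in endocardial-like nuclei. Without the 5 members of most UMIs, the macrophage-like level intervals of MI-NS and Sham-NS overlapped. Irf9, the DNA-binding part of ISGF3, had 0.45 in cardiomyocyte-like and -0.37 in fibroblast-like nuclei. Oas2 had 0.61 in fibroblast-like and -0.64 in macrophage-like nuclei. Stat2 had 0.76 in cardiomyocyte-like nuclei, -0.61 in vascular endothelial-like and -0.26 in fibroblast-like nuclei. Parp14 had 1.11 in cardiomyocyte-like nuclei, -0.53 in macrophage-like, -0.24 in vascular endothelial-like and -0.35 in fibroblast-like nuclei. Its cardiomyocyte-like value was much smaller with nuclei assigned by marker level, as given above. Ifi203 had 0.19 in vascular endothelial-like, 0.16 in fibroblast-like and -0.49 in macrophage-like nuclei. These are ratios of whole classes. Within the Slc34a1 and Vcan fibroblast cluster, Stat2 had 403 CPM in MI-NS (353 to 458) and 365 in Sham-NS (289 to 454). It was thus not lower in MI-NS there, unlike in the whole class. TMM scaling added -0.20 in vascular endothelial-like and -0.13 in fibroblast-like nuclei, about the size of the Ifi203 values in these classes. In cardiomyocyte-like nuclei it added -0.24, more than the lower bound of Irf9 there (0.45, 0.18 to 0.71) is above 0.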

How the results depend on the processing

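No paired analysis was possible because each group has 1 library. Of 22 members' ratios of at least 2-fold, 11 stayed so under every alternative on the whole class that gave a value, and 154 of 177 alternative values kept the direction and the 2-fold size, with 0 turned in direction. TMM scaling added -0.13 in macrophage-like, -0.20 in vascular endothelial-like, -0.13 in fibroblast-like and -0.24 in cardiomyocyte-like nuclei to the log2 ratios of MI-NS over Sham-NS, and 0.12 in vascular endothelial-like and 0.23 in cardiomyocyte-like nuclei to those of MI-DAPA over MI-NS. Of 80 planned medians 2 moved beyond the spread, that of fibroblast-like nuclei for MI-DAPA over MI-NS to -0.18 with nuclei thinned to 1000 UMIs, and that of cardiomyocyte-like nuclei for MI-NS over Sham-NS to 0.40 with nuclei assigned by marker level. The sign differed in 10 of the 80, namely 3 for vascular endothelial-like and 6 for fibroblast-like nuclei in MI-NS over Sham-NS, and 1 for vascular endothelial-like nuclei in MI-DAPA over MI-NS. As a log2 ratio, the share of nuclei with at least 2 members moved with thinning to 1000 UMIs to -0.13 and -0.0484 in macrophage-like nuclei (MI-DAPA over MI-NS, and MI-NS over Sham-NS), where 11 MI-DAPA nuclei were left. Assignment by marker level gave -0.49 for fibroblast-like nuclei, MI-DAPA over MI-NS. With at least 3 members required it was -0.85 in macrophage-like, -0.55 in fibroblast-like and -2.17 in cardiomyocyte-like nuclei (MI-DAPA over MI-NS), and -0.0094 in fibroblast-like and 2.91 in cardiomyocyte-like nuclei for MI-NS over Sham-NS. The cause was not tested. The medians within single clusters were added after the data had been seen. The low member level in cardiomyocyte-like nuclei left 9 measurable members a contrast.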
